A study of Mus musculus with 2 samples.

Results

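Penk, the gene of proenkephalin, was followed in splenic regulatory T cells (Tregs) as 1 of the 28692 genes counted. It was chosen by its measured level, which differed widely between the libraries, and by the spread of its counts over cells. Its level, its spread over cells and the genes found with it are therefore descriptions of these libraries, with no test. The study sorted CD4 Tregs from spleens of male B6 Pparg-Tdt.Foxp3-Gfp mice aged 8 weeks, a strain with a Tdt reporter of Pparg and a Gfp reporter of Foxp3, and counted their RNA cell by cell from the 3′ ends of transcripts in droplets. One group held Tregs with low reporter signal of PPARg, a nuclear receptor of lipid metabolism, and the other held Tregs without it. Both groups carried both reporters and neither was treated. Spleens of 2 or 3 mice were pooled for a sort and each group was 1 library, so mice could not be compared, and the 95% intervals given throughout reflect counting error alone.

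Proenkephalin is a secreted precursor that neurons, adrenal chromaffin cells and some immune cells make. Prohormone convertases or furin-like proteases cut it at pairs of basic residues, carboxypeptidases trim the ends, and the pentapeptides Met-enkephalin and Leu-enkephalin are released. They act on delta and mu opioid receptors and are broken down by peptidases on cell surfaces. In T cells Penk is known as a gene that activation can induce, and Tregs of several tissues are known to express it.

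Penk (ENSMUSG00000045573) lies on the minus strand of chromosome 4 at 4133531 to 4138819 in mm10, by the GENCODE M21 annotation. Its full-length transcript has 2 exons, both coding, and its open reading frame has 268 codons. Within that frame 7 enkephalin units were found, 6 of Met-enkephalin and 1 of Leu-enkephalin, all in exon 2, the last exon. The stretch with the first 3 units is shown because it displays how the precursor repeats 1 short peptide between the places where it is cut. It covers chr4:4134220-4134354 in mm10 on the minus strand, is written 5′ to 3′, and has the codons of the Met-enkephalin units in capitals.
Penk: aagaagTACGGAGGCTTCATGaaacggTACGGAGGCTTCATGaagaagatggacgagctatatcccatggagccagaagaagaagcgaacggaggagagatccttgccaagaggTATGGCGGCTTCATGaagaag
The lower-case codons that touch each unit on both sides encode pairs of basic residues, as they do at 5 of the 7 units of the precursor. The first 2 units have identical codons and the third differs in its spelling but not in its peptide. The deposited values are counts per gene, so they hold no information on which units were translated or cut.

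Cells were kept at a mitochondrial share of UMIs of at most 10% (a UMI, or unique molecular identifier, stands for 1 captured transcript). There were 1619 such PPARg-low cells with a median of 1517 UMIs and 2633 PPARg-negative cells with a median of 2171 UMIs. Pparg itself had 43 UMIs in 41 PPARg-low cells and 0 UMIs in PPARg-negative ones, where up to 0.114% of cells could still hold a Pparg UMI. Foxp3, the defining factor of Tregs, was sparse in both, with a UMI in 5.99% and 5.36% of cells, while Ikzf2, another Treg factor, had a UMI in 92.6% and 63.8%. The libraries shared 5 barcode sequences; 1 of these barcodes held 19 Penk UMIs and 14376 UMIs in all in the PPARg-low library, and the PPARg-negative cells with the same 5 sequences held 0 Penk UMIs. Cells with under 20% of their UMIs from ribosomal protein genes, called ribosome-poor below, made up 58.7% of PPARg-low and 23.3% of PPARg-negative cells.

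Penk was far higher in the PPARg-low library, at 548 UMIs per 1e6 UMIs of the library (CPM) against 28.5 CPM. Cells were thinned to 750 UMIs each, so that depth could not set the shares, which left 1381 PPARg-low and 2394 PPARg-negative cells. A Penk UMI was then found in 192 PPARg-low cells, 13.9% (12.1 to 15.8), and in 38 PPARg-negative cells, 1.59% (1.13 to 2.17). The share of cells with Penk was thus 8.76 times higher. The mean in a cell with Penk was 3.35 UMIs in the PPARg-low and 1.5 UMIs in the PPARg-negative library, which is 2.24 times higher. At this depth the mean over all cells was 0.466 against 0.0238 UMIs, a ratio of 19.6. So the PPARg-low library was higher both in the share of cells with a Penk UMI and in the mean of those cells. A cell with a UMI has at least 1, so a lower level per cell also lowers the share. These values therefore cannot tell fewer cells with Penk apart from less Penk per cell. Before thinning, the shares were 18.8% and 2.32%.

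The counts were very uneven from cell to cell. In the PPARg-low library at 750 UMIs, 1189 cells had 0 Penk UMIs, 81 had 1, 69 had 2 to 4, 30 had 5 to 9, and 12 had 10 or more. The 42 cells with 5 or more were 3.04% of the library and held 57.3% of its Penk UMIs. The 12 cells with 10 or more, 0.869% of the library, held 27.6% of them. In the PPARg-negative library 26 cells had 1 UMI, 11 had 2 to 4, and 1 had 6, the most in any of its cells. At this depth and in this draw, cells of high Penk were therefore seen almost entirely in the PPARg-low library, with 1 cell of 5 or more UMIs in the other (0.0418%). Before thinning, 8 PPARg-negative cells had 5 to 9 UMIs and 3 had 10 or more, against 60 and 43 PPARg-low cells.

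**Figure D1:**
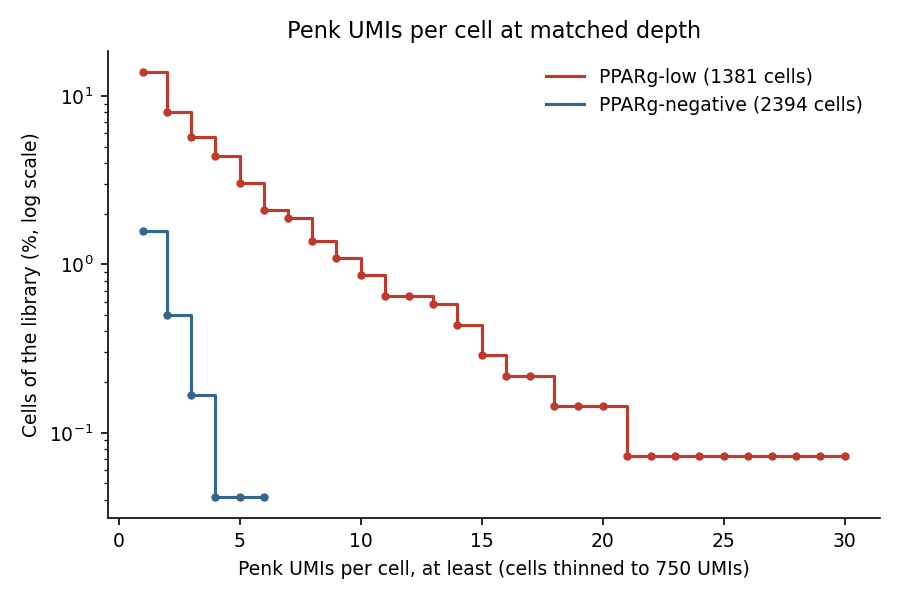
The share of cells (%, log scale) with at least a given number of Penk UMIs after each cell was thinned to 750 UMIs, with 1 line per library. The PPARg-low line starts at 13.9% and reaches 30 UMIs, while the PPARg-negative line starts at 1.59% and ends at 6 UMIs.

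Without thinning the same shape appeared. Of the PPARg-low cells 36 (2.22%) held 50% of all Penk UMIs, and of the PPARg-negative cells 11 (0.418%) did. The 5 PPARg-low cells with most Penk held 91, 51, 44, 31 and 30 UMIs, from totals of 6700, 3641, 3392, 827 and 3935 UMIs. Penk was thus as much as 3.75% of a cell's transcripts, in the fourth of these cells. The 5 PPARg-negative cells with most held 13, 12, 12, 9 and 7 UMIs. None of these 10 cells was marked as a doublet by Scrublet, which marked 11 PPARg-low and 8 PPARg-negative cells in all. The 16 PPARg-low cells with most Penk, 1% of the library, could be left out and 1099 of its 1591 Penk UMIs remained. Leaving out the 26 PPARg-negative cells with most left 43 of 168 UMIs, so the ratio of the libraries then stood at 52.1 (38.4 to 72.4) instead of 19.2. Before thinning, 304 PPARg-low and only 61 PPARg-negative cells had a Penk UMI. The same 1% thus takes a larger part of the latter, and the rise of the ratio follows largely from that rule.

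The Fano factor, the variance of UMIs per cell over their mean, puts this on a scale for all genes. It was 7.20 for Penk in the PPARg-low library at 750 UMIs, the fourth highest of 4589 genes with 30 or more UMIs, whose median was 1.02. Above it stood Ccl4, Malat1 and Ccl5. Among the 306 genes of a similar UMI total, whose median was 1.10, only Ccl5, a chemokine gene, was higher, at 10.0, and the next below Penk was S100a6 at 2.90. In the PPARg-negative library the Fano factor was 2.1, which placed Penk at rank 26 of 5492 genes. That value rests on few cells, since another thinning draw gave 3.31 and rank 4 of 5511.

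Penk was found in PPARg-low cells of every depth. Cells of under 1000 UMIs had Penk in 16.7% (13.5 to 20.2) at 909 CPM. Cells of 1000 to 1500 UMIs had it in 15.5% at 608 CPM, and those of 2000 to 3000 UMIs in 21.5% at 433 CPM. Cells of 3000 or more UMIs had it in 24.5% (18.6 to 31.1) at 515 CPM. The share with a UMI was highest in the deepest cells, and the level in CPM was highest in the shallowest.

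Against the ratio of 19.2 over all cells, the gap between the libraries was smaller within ribosome-poor cells and within cells split by Klrg1, and as large within ribosome-rich cells. Among ribosome-poor cells Penk stood at 707 CPM against 71.6 CPM, a ratio of 9.87 (7.35 to 13.5). Among the other, ribosome-rich cells it stood at 444 CPM against 23.1 CPM, a ratio of 19.2 (15.8 to 23.5). Klrg1, a receptor of differentiated effector Tregs, gave another split, chosen after seeing the data. Cells with a Klrg1 UMI before thinning had 724 CPM against 110.3 CPM, a ratio of 6.56 (4.62 to 9.64), and cells without one had 315 CPM against 24.3 CPM, a ratio of 13.0 (10.7 to 15.9). PPARg-low cells without Klrg1 thus held more Penk than PPARg-negative cells with it. With Klrg1 read after thinning to 750 UMIs, Penk was found in 18.8% (15.7 to 22.3) of the PPARg-low cells with Klrg1 and in 10.5% (8.44 to 12.8) of those without.

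**Figure D2:**
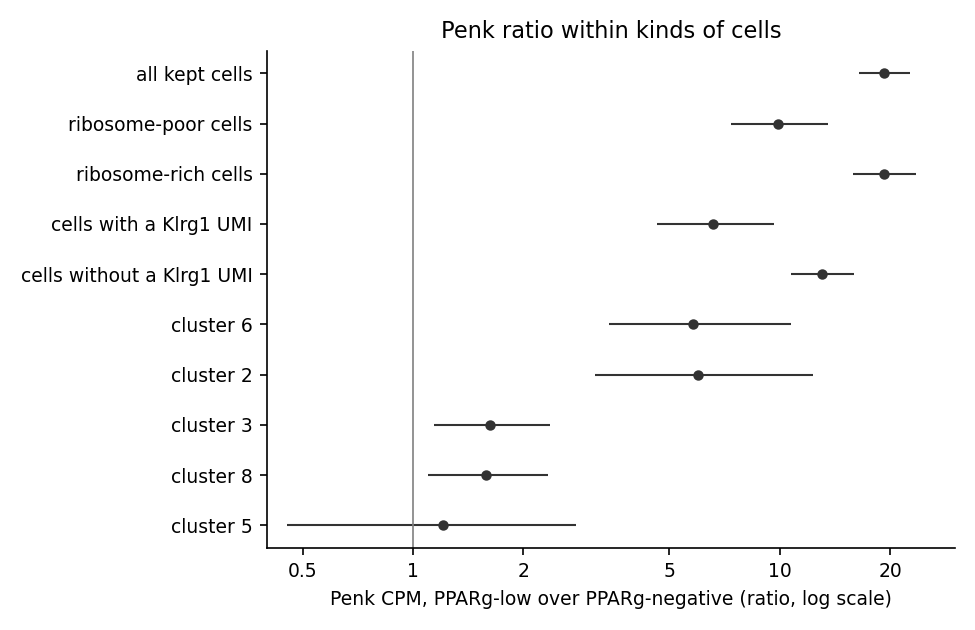
Ratio of Penk CPM, PPARg-low over PPARg-negative (log scale), over all kept cells and within kinds of cells, with 95% counting intervals. The ratio was 19.2 over all cells and between 1.21 and 5.97 within the 5 clusters shown.

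Clustering without Penk showed where these cells lie. Of 10 clusters, 3 held most of the Penk in the PPARg-low library: cluster 6, effector Treg-like and led by Ccl4, Il1r2, Il10 and Ccr8; cluster 3, unnamed and led by Trf, Ctsh, Frmd5 and Neb, with Epcam, Pdcd1 and Id2 among its first genes; and cluster 8, unnamed and led by Tbc1d4, Rgs16, Sccpdh and Tox2. These 3 held 70.2% of the PPARg-low cells and 94.7% of their Penk UMIs. In the PPARg-negative library they held 5.62% of the cells and 50.6% of the Penk UMIs. By cells, however, they held 175 of the 192 PPARg-low cells with Penk at 750 UMIs and 13 of the 38 PPARg-negative ones, so most PPARg-negative cells with Penk lay in other clusters.

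In the PPARg-low library the level was 1061 CPM (986 to 1139) in cluster 6, 632 CPM (583 to 684) in cluster 3, and 473 CPM (397 to 559) in cluster 8. It was 95 CPM (71.0 to 125) in cluster 2, which was led by Ccr2, Ccr3 and Gzmb, and 43.2 CPM (17.4 to 89.1) in cluster 5, led by Gsta4. These intervals are apart for each step of the order except the last, from cluster 2 to cluster 5. They treat UMIs of the same cell as independent, so they are too narrow for a gene this uneven. In cluster 8, 1 cell held 51 of the 138 UMIs, and in cluster 6, 1 cell held 91 of the 754. Without the 1 cell with most Penk, the levels of clusters 6, 3, 8, 2 and 5 were 942, 607, 302, 78.8 and 31.3 CPM. That kept the order, but put clusters 6 and 8 below their intervals. The order of the shares of cells at 750 UMIs was the same, at 20.9% (16.7 to 25.7), 17.0% (13.9 to 20.5), 12.6% (7.07 to 20.3), 5.22% (2.89 to 8.61) and 1.39% (0.0352 to 7.5). The intervals of neighbours overlap in this order, while those of clusters 3 and 2 do not. Cluster 10, cycling-like, had 26 Penk UMIs in 14 cells. Clusters 1, 4, 7 and 9 held 71 PPARg-low cells with a median of 972 UMIs and 0 Penk UMIs. Of these, cluster 1, resting Treg-like, held 21 cells, where 0 allows up to 14.3%. Without thinning, Penk was found in 25.6, 22.5 and 23.0% of the cells of clusters 6, 3 and 8, whose median UMIs were 1614, 1191 and 2312. These 71 cells are grouped by their count of 0, so they set no level of free RNA, and the part of free RNA in the shares was not tested.

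In the PPARg-negative library the levels were 391 CPM (269 to 549) in cluster 3, 299 CPM (211 to 410.1) in cluster 8 and 183 CPM (100 to 307) in cluster 6, with overlapping intervals. All were far above cluster 1, at 5.25 CPM (2.52 to 9.65) over 839 cells, and cluster 4, led by Gadd45g and Gpr83, at 12.5 CPM. The ratio of the libraries was 1.62 (1.14 to 2.37) within cluster 3 and 1.58 (1.10 to 2.33) within cluster 8. It was 5.80 (3.43 to 10.7) within cluster 6 and 5.97 (3.14 to 12.3) within cluster 2. Within cluster 5 it was 1.21 (0.452 to 2.79), where no difference was detectable at this depth. The PPARg-negative cells of clusters 3, 6 and 8 numbered 56, 39 and 53, and their Penk UMIs 33, 14 and 38. A few cells carried these counts: 13 of the 33 UMIs of cluster 3 and 9 of the 14 of cluster 6 lay in 1 cell each, and 2 cells of cluster 8 held 12 each. Without the 1 cell of each library with most Penk, a setting added after seeing the data, the ratio was 2.51 (1.61 to 4.14) in cluster 3, 1.44 (0.922 to 2.33) in cluster 8 and 13.8 (5.88 to 42.6) in cluster 6. Without 2 cells of each it was 3.46, 1.96 and 31.2, so the size of the gap within clusters 3 and 6 rests on single PPARg-negative cells.

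**Figure D3:**
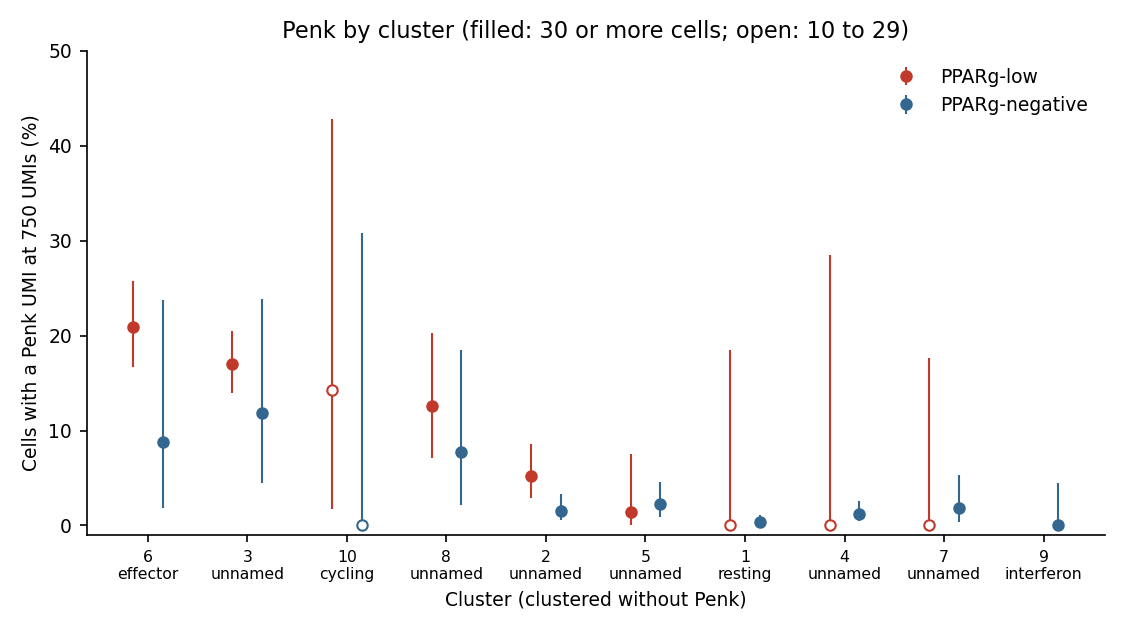
Share of cells with a Penk UMI (%) after thinning to 750 UMIs, by cluster and library, with exact binomial 95% intervals. Filled points stand for 30 or more cells and open points for 10 to 29, and the single PPARg-low cell of cluster 9 is left out. Clusters 6, 3 and 8 have the highest shares of filled points in both libraries.

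The genes found with Penk were read within each library by comparing the cells with a Penk UMI at 750 UMIs with the cells without. A gene was called higher when its ratio of CPM was at least 1.5 and its interval lay above 1, and lower in the mirrored case. In the PPARg-low library (192 cells with Penk, 1189 without), 114 of 4588 genes were higher (2.48%) and 97 were lower (2.11%). The cells with Penk were somewhat richer in receptors of activated Tregs and poorer in genes of resting, recirculating T cells.

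The gene most like Penk in both measures was Tnfrsf9, the costimulatory receptor 4-1BB. It had 362 UMIs in cells with Penk and 1259 UMIs in cells without, a ratio of 1.79 (1.59 to 2.01). It was present in 62.5% of the cells with Penk and in 41.5% of the rest. Over the 1381 cells the Pearson correlation of log2(UMIs + 1) of Penk and Tnfrsf9 was 0.202, the highest of any gene, and that of Cd81 was 0.192. All cells come from 1 library, and correlations of this size in sparse counts describe a loose association. The tetraspanin Cd81 had a ratio of 1.76 (1.48 to 2.08). Tnfrsf4, the receptor OX40, had 653 UMIs against 2651 UMIs, a ratio of 1.53 (1.40 to 1.67).

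Of the other 9 of the 12 highest genes, H2afz, a histone variant, had a ratio of 1.59 (1.45 to 1.75), and Id2, an inhibitor of E protein transcription factors, had 1.87 (1.39 to 2.48). Hspd1, a mitochondrial chaperone, had 1.96 (1.36 to 2.76), and Srpr, a receptor subunit for secretory protein synthesis, had 2.22 (1.41 to 3.41). Nkg7, a protein of cytotoxic granules, had 2.15 (1.5 to 3.04) from 45 UMIs in only 15 of the 192 cells. Dcaf8, Ppat, Fam110a and Rap2c rested on 11 to 17 UMIs each. In another thinning draw the interval stayed above 1 for 10 of the 12 genes, Srpr and Hspd1 being the exceptions. In all of 7 alternative settings it did so for only 6 of the 12: Tnfrsf9, Nkg7, Cd81, H2afz, Tnfrsf4 and Id2. With cells at 1500 UMIs the intervals of Dcaf8, Ppat, Srpr, Fam110a and Hspd1 included 1, with Hspd1 at 1.24 (0.883 to 1.71). That of Rap2c did so within ribosome-poor cells, at 1.37 (0.247 to 5.06).

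On the lower side, Klf2, a transcription factor of quiescent and recirculating T cells, had 18 UMIs in cells with Penk against 329 UMIs without, a ratio of 0.340 (0.199 to 0.546). Ms4a4b, a membrane protein of T cells, had 46 UMIs against 740 UMIs, a ratio of 0.387 (0.281 to 0.521). The other 4 of the 6 lowest genes, Sucla2, Rfwd2, Pfdn4 and Rpf2, had 0 UMIs in cells with Penk against 38 to 46 UMIs in the rest. In another thinning draw only Klf2 and Ms4a4b of the 6 kept an interval below 1.

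**Figure D4:**
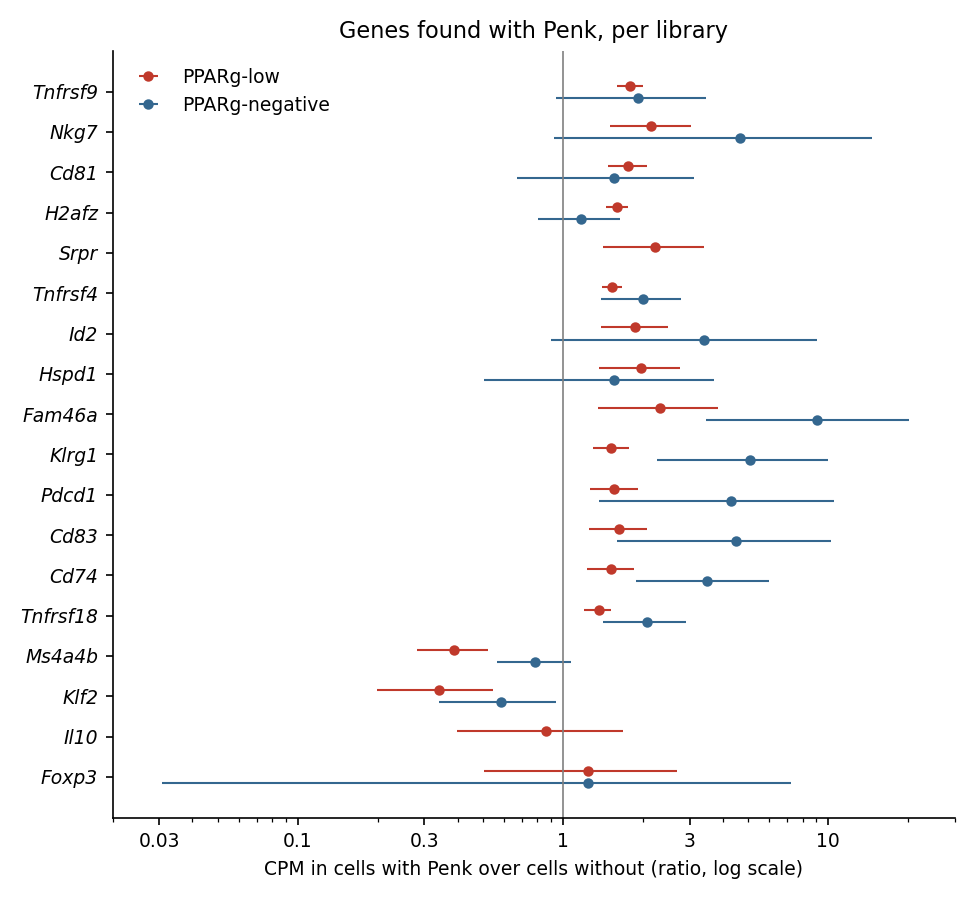
Ratio of CPM in cells with Penk over cells without (log scale) at 750 UMIs, for genes named in the text, with 95% counting intervals, in each library. Tnfrsf4, Klrg1, Fam46a, Pdcd1, Cd83, Cd74 and Tnfrsf18 lie above 1 and Klf2 below 1 in both libraries, and no PPARg-negative value is drawn for Srpr and Il10, which had 0 UMIs in its cells with Penk.

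Several of these genes were then read by the number of Penk UMIs in a cell. Most were picked by their ratio with Penk in the same cells, so a difference from cells with 0 was favoured by the choice. The values describe how that difference was spread over the groups, and not genes at large. Tnfrsf9 was present in 41.5% of PPARg-low cells with 0 Penk UMIs, in 49.4% (38.1 to 60.7) of those with 1, in 69.6% (57.3 to 80.1) of those with 2 to 4, and in 76.2% (60.5 to 87.9) of those with 5 or more. Cd81 was present in 34.2, 40.7, 52.2 and 69.0% of the same groups of 1189, 81, 69 and 42 cells. Tnfrsf4 was present in 66.7, 76.5, 79.7 and 88.1%. Klrg1 was present in 38.8, 46.9, 62.3 and 61.9%, so it did not differ between the last 2 groups beyond their intervals. Klf2 was present in 19.0, 12.3, 2.90 and 2.38%, and Ms4a4b in 33.1, 18.5, 14.5 and 14.3%. Nkg7 was present in 5.80, 2.47, 7.25 and 19.0%, so its place among the highest genes rests on the 42 cells with most Penk.

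The cells with most Penk also differed in measures of cell content. Of the cells with 0, 1 and 2 to 4 Penk UMIs, 51.2, 50.6 and 53.6% were ribosome-poor, and of those with 5 or more, 81.0% were. The median of UMIs per cell before thinning was 1773, 1741, 1568 and 1142, and the median mitochondrial share was 3.83, 4.07, 4.78 and 5.22%. Within ribosome-poor cells the same order of Tnfrsf9 was seen, with 52.7, 65.9, 83.8 and 85.3% over 609, 41, 37 and 34 cells. Klf2 was there present in 17.1, 9.76, 2.70 and 2.94%. Tnfrsf4, at 80.1, 90.2, 89.2 and 88.2%, had overlapping intervals in the 3 groups with Penk. Cluster 6 held 22.5% of the cells with 0 Penk UMIs and 52.4% of those with 5 or more, while cluster 3 held 36.8 and 40.5%.

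**Figure D5:**
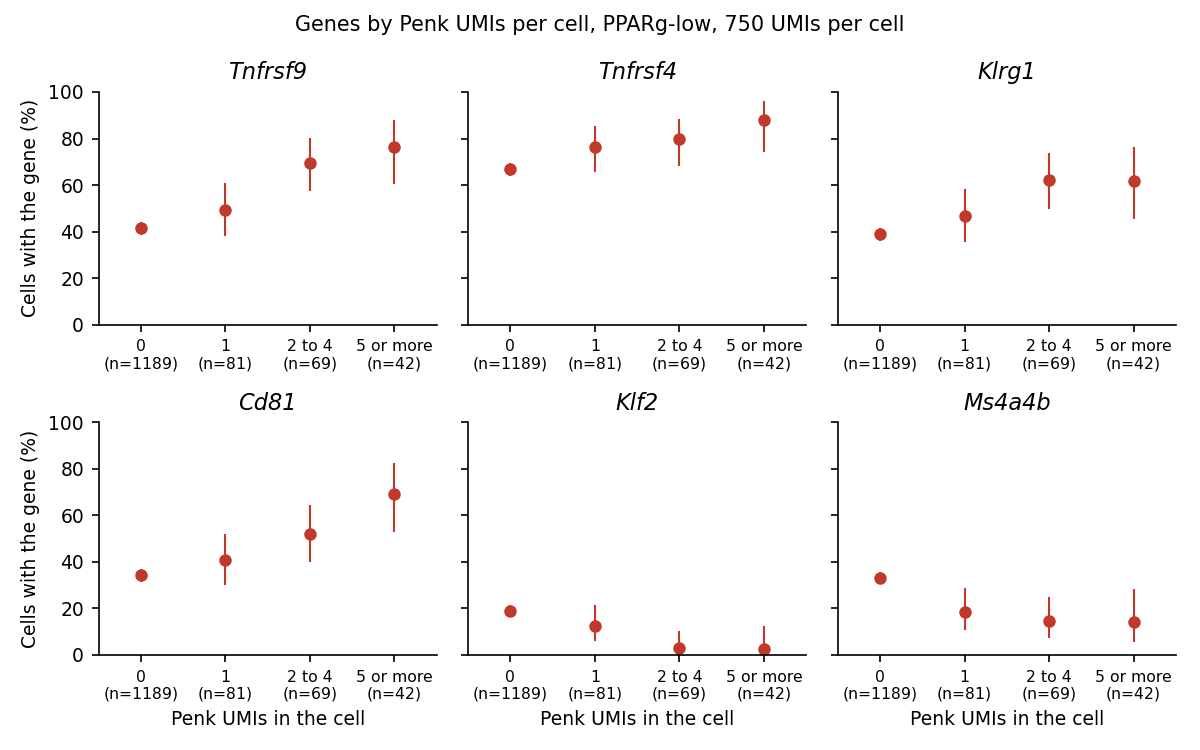
Share of PPARg-low cells (%) with a UMI of each of 6 genes, by Penk UMIs in the cell, at 750 UMIs per cell, with exact binomial 95% intervals and the number of cells under each group. Tnfrsf9 goes from 41.5 to 76.2% and Cd81 from 34.2 to 69.0%, while Klf2 goes from 19.0 to 2.38%.

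Il10, Foxp3, Pparg and Ccl5 were not called with Penk in the PPARg-low library. Il10, the cytokine that leads the cluster of highest Penk, had 10 UMIs in cells with Penk and 72 UMIs without, a ratio of 0.864 (0.397 to 1.68). Penk was found in 13.2% (5.48 to 25.3) of the cells with Il10 and in 13.9% of those without. Foxp3 had a ratio of 1.24 (0.503 to 2.69) and Pparg one of 0.982 (0.186 to 3.34), from 8 and 3 UMIs in the cells with Penk. Ccl5, the other gene of uneven counts, had a ratio of 0.963 (0.719 to 1.27), with an interval on both sides of 1. The intervals of Il10, Foxp3 and Pparg all include a ratio of 1.5, so such a difference was not detectable from these counts.

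Gene lists of T cell state were counted beside the share of all genes, 2.48% higher and 2.11% lower. Of 16 measured effector Treg genes, 6 were higher in PPARg-low cells with Penk (Klrg1, Tnfrsf9, Pdcd1, Lag3, Id2 and Cd83) and 0 lower, with a median log2 ratio of 0.29 against -0.02 over all genes. Lag3, an inhibitory receptor, had a ratio of 1.79 (1.26 to 2.50). Of 15 genes of the TNF receptor superfamily and NF-kB, 2 were higher (Tnfrsf4 and Tnfrsf9), and the same 2 were higher of 11 early genes of T cell receptor signalling. Of 8 measured resting Treg genes, 1 was lower (Klf2), with a list median of -0.43. Of 14 genes of nonlymphoid-tissue Tregs, Klrg1 was higher and Ccr2, a chemokine receptor, was lower at 0.405 (0.171 to 0.823). Factors of the AP-1 and CREB families are known to act on the Penk promoter in neural cells. None of 11 AP-1, CREB and BATF factors was called with Penk here. Fos had a ratio of 1.05 (0.519 to 1.95), Junb 1.10 (0.901 to 1.33), Batf 1.22 (0.904 to 1.63) and Jun 1.53 (0.862 to 2.60). The intervals of Fos, Batf and Jun include 1.5, so such a difference was not detectable for them, while that of Junb ends below it. A part of these factors in Penk expression was not tested. None of 9 genes of cyclic AMP signalling and none of 10 secreted mediators was called either.

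In the PPARg-negative library only 38 cells had Penk at 750 UMIs, against 2356 without. There 146 of 5491 genes were higher (2.66%) and 19 lower (0.346%). Of the tested genes, 1405 had 0 UMIs in the 38 cells, so that few genes had the counts to be called lower. The 12 highest genes had 5 to 12 UMIs in cells with Penk. Fam46a, a poly(A) polymerase of the TENT5 family, had 7 UMIs against 48, a ratio of 9.06 (3.46 to 20.1), and at 1500 UMIs one of 1.80 (0.364 to 5.47). Ccl5 had 12 UMIs against 129, a ratio of 5.78 (2.91 to 10.4), unlike in the PPARg-low library, but the difference between the libraries was not tested. Klrg1 had 9 UMIs against 110, a ratio of 5.08 (2.26 to 10.0), in 4 of the 38 cells. The other 9 were Zfp652, Rbm34, Hivep3, Leprot, Mmd, Dapp1, Thoc1, Far1 and Tars2, at ratios from 6.69 to 10.7. In another thinning draw 6 of the 12 kept an interval above 1. Genes of under 30 UMIs at this depth were not ranked, and some of them had higher correlations with Penk. Ccl4 had 19 UMIs in cells with Penk against 3 in the rest, with a Pearson correlation of 0.316. Ccl3 had 3 against 1 (0.308) and Cxcr6 had 5 against 5 (0.271), beside 0.120 for Ccl5. The number of cells behind these counts is not given here. Among the lowest, Tmsb4x, which encodes an actin-binding peptide and is among the most abundant transcripts, had a ratio of 0.647 (0.568 to 0.734), its relative Tmsb10 one of 0.646 (0.540 to 0.766), and the phosphatase gene Ptpn18 one of 0.384 (0.166 to 0.760). Cycs, Atp5f1 and Ppp1r18 had 0 or 1 UMI in the cells with Penk. Within ribosome-poor cells none of these 6 lowest genes kept an interval below 1. Tmsb4x stood there at 0.835 (0.615 to 1.11) and Tmsb10 at 0.908 (0.525 to 1.47).

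Both libraries can be set side by side because they share no cells. Of the 50 genes with the highest lower bound in each, 7 were common: Tnfrsf4, Klrg1, Fam46a, Pdcd1, Cd83, Cd74 and Tnfrsf18. For scale, 4387 genes were measured in both libraries. The median ratio of measured genes was 0.990 in the PPARg-low and 1.29 in the PPARg-negative library. In the latter the median depended on the count minimum of the genes. As a log2 ratio it was 0.36 here, 0.56 at a minimum of 10 UMIs and 0.10 at a minimum of 100 UMIs. The value of 1.29 therefore sets no level against which single ratios can be read. Tnfrsf4 stood at 1.53 in the PPARg-low and at 2.0 (1.39 to 2.78) in the PPARg-negative library. Tnfrsf18, the receptor GITR, stood at 1.36 (1.20 to 1.52) and 2.07 (1.42 to 2.92). Pdcd1, the receptor PD-1, stood at 1.56 (1.26 to 1.92) and 4.31 (1.36 to 10.5), the latter from 5 UMIs in 2 of the 38 cells with 4 of them in 1 cell. Cd83, a surface protein of activated cells, stood at 1.62 (1.25 to 2.08) and 4.49 (1.60 to 10.2). Cd74, the invariant chain, stood at 1.52 (1.23 to 1.85) and 3.49 (1.88 to 5.97), and Klrg1 at 1.52 (1.30 to 1.77) and 5.08. Klf2 was lower in both, at 0.340 and 0.585 (0.340 to 0.939). Fam46a stood at 2.32 (1.35 to 3.84) and 9.06, and in another thinning draw at 1.40 (0.776 to 2.40) in the PPARg-low library. Of the PPARg-negative cells with Penk 34.2% were ribosome-poor, against 17.0% of those without. Within ribosome-poor PPARg-negative cells only Klrg1, Fam46a and Pdcd1 of the 7 kept an interval above 1. Tnfrsf4 stood there at 1.21 (0.745 to 1.87), Tnfrsf18 at 1.54 (0.868 to 2.53) and Klf2 at 0.296 (0.0356 to 1.08). Within ribosome-rich PPARg-low cells 5 of the 7 kept an interval above 1. The exceptions were Pdcd1 at 1.01 (0.579 to 1.66) and Cd83 at 1.34 (0.777 to 2.20). In ribosome-rich PPARg-negative cells with Penk, Pdcd1 had 0 UMIs.

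Among 4387 genes measured in both libraries, 106 were higher with Penk in the PPARg-low and 129 in the PPARg-negative library, and 8 were higher in both. That is 7.55% of the first list, beside 2.94% of all 4387 genes that were higher in the PPARg-negative library, and 6.20% of the second, beside 2.42%. Most genes were therefore called in 1 library alone, which does not show that they differ between the libraries. Of the gene lists, 5 of 14 effector Treg genes were higher with Penk in the PPARg-negative library (Klrg1, Pdcd1, Cd83, Ctla4 and Itgae), 3 of 17 genes of the TNF receptor superfamily and NF-kB were (Tnfrsf4, Tnfrsf18 and Rel), and 2 of 14 resting Treg genes were lower (Klf2 and Bcl2, a survival gene). None of 11 AP-1, CREB and BATF factors was called.

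The other opioid precursors had few or no UMIs. Pdyn (prodynorphin) and Pnoc (pronociceptin) had 0 UMIs in both libraries, under a floor of 3 counts that amounts to 1.03 CPM in the PPARg-low and 0.509 CPM in the PPARg-negative library. Pomc (proopiomelanocortin) had 10 and 14 UMIs, 3.45 and 2.37 CPM, a ratio of 1.45 (0.577 to 3.51). Of the receptors that enkephalins act on, Oprd1 (delta) had 0 UMIs and Oprm1 (mu) had 1 UMI in each library. Oprk1 (kappa), Oprl1 (nociceptin) and Ackr3, an atypical receptor that takes up opioid peptides, had 0 UMIs. Ogfr, the opioid growth factor receptor, which is unrelated to the others in structure and binds Met-enkephalin, was measured at 67.9 and 62.7 CPM, a ratio of 1.08 (0.906 to 1.29). Transcripts of the classical receptors were thus under the floor of 3 counts in both libraries, while that of Ogfr was at a similar level in both libraries.

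Enzymes that could process the precursor were measured in part. Between the libraries 24.2% of 9223 genes passed the same rule as higher and 4.47% as lower in PPARg-low cells, with a median log2 ratio of 0.29, so counts of lists are to be read against these. The neuroendocrine convertases Pcsk1 and Pcsk2 had 2 and 0 UMIs in the PPARg-low and 1 and 0 UMIs in the PPARg-negative library, and Cpe, the carboxypeptidase of secretory granules, had 11 and 28 UMIs. Furin, the convertase of the constitutive pathway, stood at 31.0 and 19.0 CPM, a ratio of 1.63 (1.22 to 2.17). Cpd, a carboxypeptidase of the Golgi network, stood at 10.3 and 2.54 CPM, a ratio of 4.06 (2.12 to 8.13). Cpm, a carboxypeptidase of the cell surface, had a ratio of 1.63 (1.21 to 2.21), and Rnpep, aminopeptidase B, which removes basic residues, one of 2.02 (1.73 to 2.36). In all, 4 of 8 measured processing genes were higher and 0 lower, and neither of the 2 that could be measured in PPARg-low cells with and without Penk was called there.

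Genes of regulated secretion were divided. The granins and related genes of neuroendocrine granules, Chgb, Scg2, Scg3 and Vgf, had 0 UMIs in both libraries, and Chga had 1 UMI in the PPARg-negative library. Of 11 measured genes of the list, 2 were higher, the vesicle proteins Stx11 at 4.54 (3.62 to 5.72) and Vamp7 at 1.75 (1.33 to 2.31), and 1 was lower, Snap23 at 0.561 (0.432 to 0.723). Vamp8, which fuses lytic granules, stood at 284 and 202 CPM, a ratio of 1.41 (1.29 to 1.54). Of 6 measured peptidases that can break enkephalins down, 3 were higher: Dpp3 at 1.75 (1.46 to 2.1), Npepps at 1.66 (1.32 to 2.09) and Erap1 at 1.73 (1.29 to 2.31). Dpp4 stood at 16.9 and 24.9 CPM, a ratio of 0.677 (0.480 to 0.942). The main enkephalinases of tissues were hardly seen, with Mme (neprilysin) at 0 and 2 UMIs and Anpep and Ace at 0. None of 8 genes of secretion and none of 3 of breakdown was called in PPARg-low cells with Penk, and Stxbp2, a partner of syntaxins, was higher with Penk in PPARg-negative cells, at 3.33 (1.20 to 7.47).

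Between the libraries, the lists of T cell state gave the following counts, beside the same 24.2% and 4.47%. Higher in PPARg-low cells were 17 of 18 effector Treg genes, 15 of 17 genes of nonlymphoid-tissue Tregs, 11 of 15 early T cell receptor genes, 11 of 18 genes of the TNF receptor superfamily and NF-kB, 9 of 15 secreted mediators, 8 of 15 AP-1, CREB and BATF factors and 3 of 13 genes of cyclic AMP signalling. Of 14 resting Treg genes 13 were lower and Il7r was higher. Fos, for example, stood at 68.6 and 4.58 CPM, a ratio of 15 (9.99 to 23.3). Its ratio with Penk inside the PPARg-low library was 1.05, with a wide interval (0.519 to 1.95).

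Markers of the cells best known for Penk were at or near 0. Snap25, Stmn2, Th, Chga and Syt1, markers of neurons and chromaffin cells, had 0 UMIs in the PPARg-low library, and of these only Chga was seen in the other. The platelet markers Pf4, Ppbp and Itga2b had 0 UMIs in both. At 750 UMIs, B cell markers were found in 1.56% of PPARg-low cells with Penk and in 2.94% of those without, myeloid markers in 1.04 and 1.43%, and CD8 markers in 3.12 and 2.1%. The 5 Treg markers had a UMI in 94.3% of the cells with Penk and in 89.8% of those without, and in the PPARg-negative library in 89.5 and 65.1%. Plasma cell markers were found in 8.33 and 7.74% of PPARg-low cells with and without Penk. In the PPARg-negative library they were found in 18.4 and 6.37%, a ratio of 2.76 (1.09 to 5.83) from 7 UMIs in the cells with Penk, with Jchain, the defining one, at 0 in the whole library, and their part in the result was not tested. B cell, myeloid, and NK and ILC markers had 0 UMIs in the PPARg-negative cells with Penk, and CD8 markers had 1.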

How the data were processed

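Each library came as the authors' deposited table of raw counts, 1 UMI count for every gene in every barcode, not normalized. The submitters' processing notes name Cell Ranger 2.1.0 and mm10; which annotation and cell calling were used is not given in the sources used here. A tag pos stands in the file names of the group labelled low; the label was followed.

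Cells with at most 10% mitochondrial UMIs and at least 200 genes were kept (2901710 and 5897260 UMIs). Doublets were marked with Scrublet in scanpy 1.11.5 (0.679% and 0.304% of kept cells) and kept in. CPM ratios carry exact conditional binomial intervals, and shares exact Clopper-Pearson ones. A gene at 0 in 1 group entered at 3 counts. Genes with 30 or more UMIs were measured. Cells were thinned without replacement to 750 UMIs, leaving out 238 and 239 shallower ones. Clusters came from 2000 variable genes without Penk and without ribosomal, mitochondrial, immunoglobulin and T cell receptor genes, with 20 components, 15 neighbours and Leiden resolution 1.0 (leidenalg 0.10.2), with no batch correction, and were named from 3 or more markers among 10 leading genes. Sizes were not compared.

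With 1 library per group no test was possible. The interval code was checked on simulated data. Penk, the 13 gene lists and the rules were chosen with earlier results of these data known. Named were opioid genes, the 12 highest and 6 lowest genes with Penk by interval bound, those among the first 50 in both libraries, up to 4 members of each other list, and Klrg1, Il10 and Foxp3; further genes were named after their values were seen. The Penk sequence was cut from the GENCODE M21 transcript. Alternatives covered filters, scaling, depth, thinning draw, Penk split, count minimum, ribosomal share and resolution. Scripts ran under Python 3.11.15 with pandas 2.3.3, numpy 2.4.6, matplotlib 3.10.9 and scipy 1.17.1.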

Additional observations from a re-analysis of the deposited data

Results flagged for a closer look

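Of 4387 genes measured in both libraries, 2 were called in opposite directions with Penk, and the difference between the libraries was not tested. Vim, the intermediate filament vimentin, was lower with Penk in PPARg-low cells, at 0.531 (0.363 to 0.755, from 34 UMIs), and higher in PPARg-negative cells, at 2.44 (1.55 to 3.67, from 24 UMIs). In another thinning draw it stood at 0.548 and 1.32 (0.657 to 2.39), and with cells at 1500 UMIs at 0.451 and 0.728, so the lower value in PPARg-low cells was seen in each draw and the higher one in PPARg-negative cells was not. B4galnt1, an enzyme of ganglioside synthesis, stood at 0.545 (0.322 to 0.871) and 1.94 (1.05 to 3.29). In another draw it stood at 0.740 (0.458 to 1.14) and 1.69 (0.805 to 3.14), and with cells at 1500 UMIs at 1.11 (0.765 to 1.58) and 1.0 (0.544 to 1.69), so neither call was kept.

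The barcodes left out for over 10% mitochondrial UMIs held Penk as well. The 373 PPARg-low barcodes had 285 Penk UMIs, 876 CPM, with a UMI in 20.6% (16.6 to 25.1), and the 269 PPARg-negative ones had 15 UMIs, 69.1 CPM, with a UMI in 2.60% (1.05 to 5.29). The ratio among them was 12.7 (7.56 to 22.9), and the level in each was above that of the kept cells.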

How the results depend on the processing

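With 1 library per group, nothing here measures variation between mice, sorts or libraries, and a library's own properties cannot be told apart from its group. No paired analysis was possible because each group has 1 library, so the groups share fewer than 2 replicate numbers. Penk was higher in PPARg-low cells under every alternative run, but it was chosen with that difference known. Against 19.2, the ratio was 16.1 at a limit of 5% mitochondrial UMIs, 9.87 in ribosome-poor cells, 15.8 relative to the median ratio of all genes, 16.1 over UMIs that are neither ribosomal nor mitochondrial, and 52.1 without the 1% of cells with most Penk. It was 6.56 and 13.0 in cells with and without Klrg1 before thinning, a split added after seeing the data.

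The PPARg-low share of 13.9% was 11.1, 17.0 and 18.8% at 500 UMIs, at 1500 UMIs and without thinning, 8.04% for 2 or more Penk UMIs, 12% at the stricter mitochondrial limit, and 17.8 and 8.48% with and without Klrg1 read before thinning. The PPARg-negative share of 1.59% was 0.949% at 500 UMIs, 2.32% without thinning, 0.501% for 2 or more UMIs, 3.14% in ribosome-poor cells and 4.65% with Klrg1. The Fano factors at 1500 UMIs were 8.93 and 4.06, and another draw gave 3.31 in the PPARg-negative library.

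Genes higher with Penk in PPARg-low cells numbered 173 and 45 at minimums of 10 and 100 UMIs, and 59 and 44 in ribosome-poor and ribosome-rich cells, against 114. Lower genes numbered 37 at 100 UMIs and 38 in ribosome-rich cells, against 97. In PPARg-negative cells 73 were higher at 100 UMIs and 39 in ribosome-poor cells, against 146, and 11 were lower in ribosome-rich cells, against 19. At the higher minimum and within subsets fewer genes were tested. Between the libraries, 2232 higher and 412 lower genes became 1101 and 815 relative to the median ratio, and 445 and 1472 were higher in ribosome-poor and ribosome-rich cells. At 1500 UMIs, Leprot and Far1 turned to 0.494 and 0.838 in PPARg-negative cells, from 1 UMI each. Of 287 values of 42 named gene results under alternatives, 250 kept their place within their interval, 35 moved and these 2 reversed.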
